A study of Homo sapiens with 10 samples.

Results

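The S100 genes encode small dimeric proteins that bind calcium through a pair of EF-hand loops, and 10 of them were followed here among the 20591 genes of the deposited table: S100A4, S100A6, S100A8, S100A9, S100A10, S100A11, S100A12, S100A13, S100P and S100B. They were chosen by name, with earlier results of these data known, and all 10 had a row. The levels came from 10 bulk RNA sequencing libraries of untreated, wild-type human cell lines harvested at day 0 and grown in RPMI with 10% fetal bovine serum. There was 1 library each of HL60, from an acute promyelocytic-type leukaemia, K562, from a chronic myeloid leukaemia and with erythroid features, SUDHL4, from a B cell lymphoma, and THP1, from an acute monocytic leukaemia, and 1 each of 6 mixtures of these 4 lines. The mixing ratios are not in the labels. The study concerns deconvolution, the estimation of cell type proportions from bulk data.

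S100A8 and S100A9 pair to form calprotectin, a major cytosolic protein of neutrophils and monocytes that binds calcium and metal ions and is released in inflammation. S100A12 is a further granulocyte and monocyte member, and secreted S100 proteins signal through the receptors RAGE (gene AGER) and TLR4. Other members act mainly inside the cell: S100A10 and S100A11 bind annexins at membranes, S100A4 binds non-muscle myosin, and S100A6 binds CACYBP, which takes part in ubiquitin ligase complexes.

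Levels are normalised CPM, that is, reads per 1000000 with library sizes rescaled by the authors. The libraries held between 24985570 (mixture 5) and 36607612 reads (mixture 1), and a gene with 1 read was listed at between 0.0409 and 0.0594 normalised CPM. Every group held 1 library, so there is no replicate error and no test between lines; intervals given with a level are exact 95% Poisson intervals of its reads and cover counting error only. Where a line had 0 reads, an upper limit of 3 reads was used. Both a low-input total RNA kit and an mRNA kit are named in the labels without saying which library had which, so a difference between kits and a difference between libraries cannot be told apart. The lines carried their own markers: the 5 B cell markers were all enriched in SUDHL4 and the 6 erythroid markers all in K562, and 4 of 5 monocyte markers were enriched in THP1. Of the 5 promyelocyte and granule markers, MPO and CEBPE were enriched in HL60 and AZU1 and ELANE in THP1, and PRTN3 was also highest in THP1. Among markers of other cells, 1 of 3 measured T and NK cell genes, 2 of 2 epithelial genes and 1 of 3 stromal and endothelial genes were enriched in K562, and none in THP1. The NK cell gene NKG7 was at 44.9 normalised CPM in THP1 and 11.4 in HL60, so it moved with the S100 genes, and its part in the results was not tested.

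The gene starts of the 8 members that reached 5 normalised CPM in a pure line are shown so that their levels can be read beside the letters just before each start. RefSeq promoter entries on GRCh38.p14 were matched by symbol for 9 of the 10 members. Each line below gives the 80 bases just before the start of a RefSeq entry, 5′ to 3′ on the gene's strand, with any match to the TATA box motif TATAAA in capitals.
S100A8: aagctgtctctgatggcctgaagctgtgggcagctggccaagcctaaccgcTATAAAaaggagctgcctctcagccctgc
S100A9: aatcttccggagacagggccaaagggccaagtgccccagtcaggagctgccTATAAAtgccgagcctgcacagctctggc
S100A12: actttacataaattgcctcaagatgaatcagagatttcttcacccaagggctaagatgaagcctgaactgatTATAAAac
S100A4: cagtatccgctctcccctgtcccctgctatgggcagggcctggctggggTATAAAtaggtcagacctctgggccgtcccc
S100P: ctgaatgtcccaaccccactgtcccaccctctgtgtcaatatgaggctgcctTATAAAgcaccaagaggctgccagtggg
S100A6: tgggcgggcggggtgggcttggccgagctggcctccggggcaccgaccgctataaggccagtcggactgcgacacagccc
S100A10: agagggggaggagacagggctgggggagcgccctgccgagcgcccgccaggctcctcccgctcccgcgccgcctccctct
S100A11: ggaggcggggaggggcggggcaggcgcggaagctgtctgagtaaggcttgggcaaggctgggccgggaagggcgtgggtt

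These stretches lie at chr1:153391074-153391153 (minus strand), chr1:153357774-153357853 (plus strand), chr1:153375622-153375701 (minus strand), chr1:153545807-153545886 (minus strand), chr4:6693798-6693877 (plus strand), chr1:153535992-153536071 (minus strand), chr1:151993860-151993939 (minus strand) and chr1:152037005-152037084 (minus strand), in the order shown. RefSeq starts differ from the outer ends of the GENCODE gene spans given with the gene positions: 6 of the stretches lie within those spans, that of S100A12 lies partly within, and that of S100A9 lies outside. The calprotectin genes S100A8 and S100A9, S100A4, S100P and S100A12 held TATAAA, which began 29 bases before the start in S100A8 and S100A9, 31 in S100A4, 28 in S100P and 8 in S100A12. The motif was absent from these letters in S100A6, S100A10 and S100A11. S100A13, which stayed below 5 normalised CPM in every pure line and is not shown, also held TATAAA, 29 bases before the start. Its GC content was 62.8%, and it had 3 entries, so its match was also chosen by the motif. Over all 35116 promoter entries, 4.35% held TATAAA on either strand in a window of this length. S100A8 had 3 entries, of which the one whose TATAAA lay nearest the start is shown, so its match was chosen by the motif; the other 7 genes shown had 1 entry each, and 4 of those held it. In the 250 bases before the start, the GC content was 71.2% in S100A10, 70.0% in S100A6 and 63.6% in S100A11, against 53.2% in S100A8, 55.6% in S100A9 and S100P and 49.2% in S100A12, with a median of 58.0% over all entries. S100A4 had a TATAAA and a GC content of 62.8%. Of further motifs searched on both strands of those 250 bases, TTGCNNAA, of the C/EBP type, matched once in S100A11 and once in S100A12 and was in 9.05% of all entries. GAGGAA, of the PU.1 type, matched once in S100A8 and once in S100A9 and was in 23.6% of all entries. A match describes these letters and is not a measured binding site.

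Among the pure lines, S100 transcripts were mainly those of the monocytic line. The 10 genes summed to 2448 normalised CPM in THP1, 392 in HL60, 120.0 in K562 and 36.3 in SUDHL4. THP1 was the highest line for 7 of 10 members, whereas 20.7% of the 11717 genes that reached 5 normalised CPM in a pure line were highest there. Enrichment in a line required a level of 5 normalised CPM or more in it, and a log2(value + 1) higher by 2 or more, about 4-fold, than in every other pure line. By this rule 6 of 10 members were enriched in THP1 (background 5.03% of the 11717 genes), 1 in HL60 (background 0.973%), 0 in K562 (background 4.6%) and 0 in SUDHL4 (background 3.56%). Because the members were chosen with earlier results of these data known, the shares stand beside the counts as a description only. The median over the 10 members of log2(value + 1) in THP1 minus the mean of the other 3 lines was 4.31, against −0.16 over the 11717 genes. It was 1.09 in HL60, −2.12 in K562 and −3.19 in SUDHL4.

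**Figure D1:**
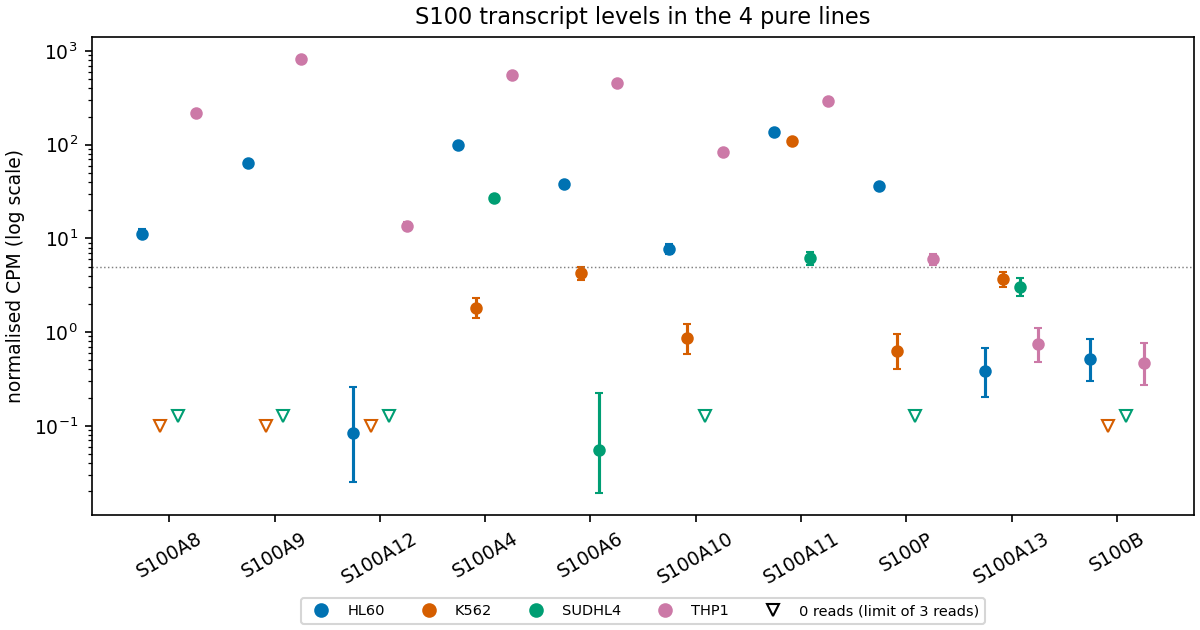
Level of each S100 gene in the 4 pure lines, in normalised CPM on a log axis; points are single libraries, bars are 95% Poisson intervals of the reads, open triangles mark 0 reads at the limit of 3 reads, and the dotted line is 5 normalised CPM. THP1 is highest for 7 genes, S100P is highest in HL60 at 36.1, and the calprotectin genes have 0 reads in K562 and SUDHL4.

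The calprotectin pair and S100A12 had reads in HL60 and THP1, and 0 reads in K562 and SUDHL4. S100A9 stood at 823 normalised CPM in THP1 (95% interval 813 to 833) and 63.8 in HL60 (60.9 to 66.7), with 0 reads in K562 and SUDHL4. S100A8 stood at 218 in THP1 (213 to 223) and 11.2 in HL60 (10.0 to 12.5), also with 0 reads in K562 and SUDHL4. Both genes thus had the order THP1, then HL60, with K562 and SUDHL4 below the limit of 3 reads. S100A9 was 12.9-fold higher in THP1 than in HL60 (95% counting interval 12.3 to 13.5), and S100A8 was 19.5-fold higher (17.5 to 21.8). Against the limit of 3 reads in a library, S100A9 was at least 8326-fold higher in THP1 than in K562 and at least 6403-fold higher than in SUDHL4. S100A8 was at least 2209-fold and at least 1699-fold higher in the same comparisons. S100A12 was at 13.6 in THP1 (12.4 to 14.9) and at 0.0838, or 2 reads, in HL60, with 0 reads in K562 and SUDHL4. Its THP1 to HL60 ratio was 162, with a wide counting interval of 55.8 to 1680.

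The ratio of the calprotectin transcripts differed between the myeloid lines. Per kilobase of annotated exon, S100A9 was 6.34 times S100A8 in HL60 and 4.1998 times in THP1. On the ratio of reads, which needs no length, S100A9 was 5.69 times S100A8 in HL60 (95% counting interval 5.07 to 6.42) and 3.77 times in THP1 (3.67 to 3.87), a difference beyond counting error that has no replicate check. The mixtures ranged from 3.31 in mixtures 4 and 6 to 4.198 in mixture 2. The intervals in mixture 4 (3.16 to 3.47) and mixture 6 (3.16 to 3.46) lay below those of both THP1 and HL60, although a mixture of lines with these ratios would lie between them. Libraries thus differed in this ratio beyond counting error, which bears on the difference between HL60 and THP1.

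S100A4, S100A6 and S100A10, which act mainly inside the cell, were also highest in THP1. Each had reads in K562, where the calprotectin pair and S100A12 had 0 reads. Of them, only S100A4 reached 5 normalised CPM outside HL60 and THP1, in SUDHL4. S100A4, the myosin-binding member linked to cell motility, was at 554 normalised CPM in THP1 (546 to 561.9), 99.3 in HL60 (95.8 to 103), 27.04 in SUDHL4 (25.1 to 29.1) and 1.82 in K562 (1.41 to 2.32). It was the only member above 20 normalised CPM in the B cell line, and its step from HL60 to THP1 was 5.58-fold (5.36 to 5.80). S100A6 was at 458 in THP1 (451 to 465), 38.0 in HL60 (35.8 to 40.2), 4.28 in K562 (3.62 to 5.01) and 0.0551, a single read, in SUDHL4. The order of K562 and SUDHL4 was therefore opposite for these neighbouring genes. S100A10, the annexin-binding member that has lost calcium binding, was at 83.9 in THP1 (80.8 to 87.1), 7.76 in HL60 (6.79 to 8.83) and 0.861 in K562 (0.586 to 1.22), with 0 reads in SUDHL4. Its THP1 to HL60 ratio was 10.8 (9.47 to 12.4), close in size to the 12.1 of S100A6 (11.4 to 12.8).

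S100A11, an annexin-binding member with roles at membranes and in growth control, was the most widespread. It was at 291 normalised CPM in THP1 (285 to 296), 135 in HL60 (131 to 139), 109 in K562 (105 to 112) and 6.11 in SUDHL4 (5.22 to 7.11). It was the only member above 5 normalised CPM in all 4 lines, and its THP1 to HL60 ratio of 2.15 (2.07 to 2.23) left it outside the enriched group. HL60 and K562 differed by 1.24-fold (1.19 to 1.30), a gap beyond counting error that has no replicate check. The gap also depends on the scaling between libraries, and it was smaller under both alternatives. Total-read scaling multiplied the HL60 level by 0.903 and the K562 level by 1.02, and housekeeping scaling by 0.882 and 0.968. Processed pseudogenes of S100A11 are annotated on chromosome 7 and had no row in the table, so reads shared with them cannot be told apart.

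S100P was the member of the promyelocytic line. It encodes an ezrin-binding protein and lies apart from the other genes, on chromosome 4. Its level was 36.1 in HL60 (33.9 to 38.3), 6.00 in THP1 (5.20 to 6.90) and 0.635 in K562 (0.403 to 0.955), with 0 reads in SUDHL4. It was 6.00-fold higher in HL60 than in THP1 (5.16 to 7.04), the reverse of the 6 genes enriched in THP1. Together with S100A6, S100A8, S100A9 and S100A10 it met the rule for a gene shared by HL60 and THP1, at least 5 normalised CPM in both and at least 2 log2 units above both remaining lines. These were 5 of 10 members, and of the 11717 genes 2.66% met it. No member met the same rule for another pair of lines, which 0.239% of genes met for HL60 and K562, 0.35% for HL60 and SUDHL4, 0.512% for K562 and SUDHL4, 1.68% for K562 and THP1, and 0.973% for SUDHL4 and THP1.

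S100A13 and S100B were low everywhere. S100A13, which takes part in the release of growth factors lacking a signal peptide, had 3.66 normalised CPM in K562 (3.06 to 4.34), 3.07 in SUDHL4 (2.45 to 3.797), 0.749 in THP1 (0.485 to 1.106) and 0.385 in HL60 (0.201 to 0.677). K562 and SUDHL4 did not differ beyond counting error (ratio 1.19, interval 0.900 to 1.59), nor did THP1 and HL60 (1.94, 0.938 to 4.50), but both of the former lay above both of the latter. S100A13 shares 28 exonic bases with S100A1 on the opposite strand. The sources used here do not say whether counting used strand, so reads in the shared stretch are uncertain. S100A13 also shares 318 exonic bases with AL162258.1, a processed transcript on the same strand. AL162258.1 had no row in the table, so reads shared with it cannot be told apart. S100B, best known from glial cells and melanocytes, had 15 reads in HL60 (0.520 normalised CPM, 0.298 to 0.846) and 15 in THP1 (0.474, 0.272 to 0.771), with 0 reads in K562 and SUDHL4. HL60 and THP1 could not be told apart for S100B at this depth (ratio 1.10, 0.4997 to 2.41).

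Seen as parts of the sum of the 10 members, each line had its own make-up. The level per kilobase of exon was used for this, since it allows different genes to be compared. S100A9 made up 40.0% of the summed S100 level per kilobase in THP1, followed by S100A4 (18.8%), S100A6 (15.2%), S100A11 (13.7%) and S100A8 (9.53%). In HL60 the leading gene was S100A11 at 41.0%, ahead of S100A4 (21.6%) and S100A9 (19.9%). K562 was almost entirely S100A11, at 93.6%. In SUDHL4 S100A4 gave 70.5% and S100A11 22.2% of a much smaller sum. That sum leaves out other S100 genes, of which S100A1 was at 19.0 and S100Z at 12.03 normalised CPM in SUDHL4. Both members would therefore hold smaller shares of all S100 transcripts there. In the 6 mixtures the share of S100A9 stayed between 33.9% and 37.2%, and that of S100A11 between 13.8% (mixture 4) and 21.2% (mixture 6).

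**Figure D2:**
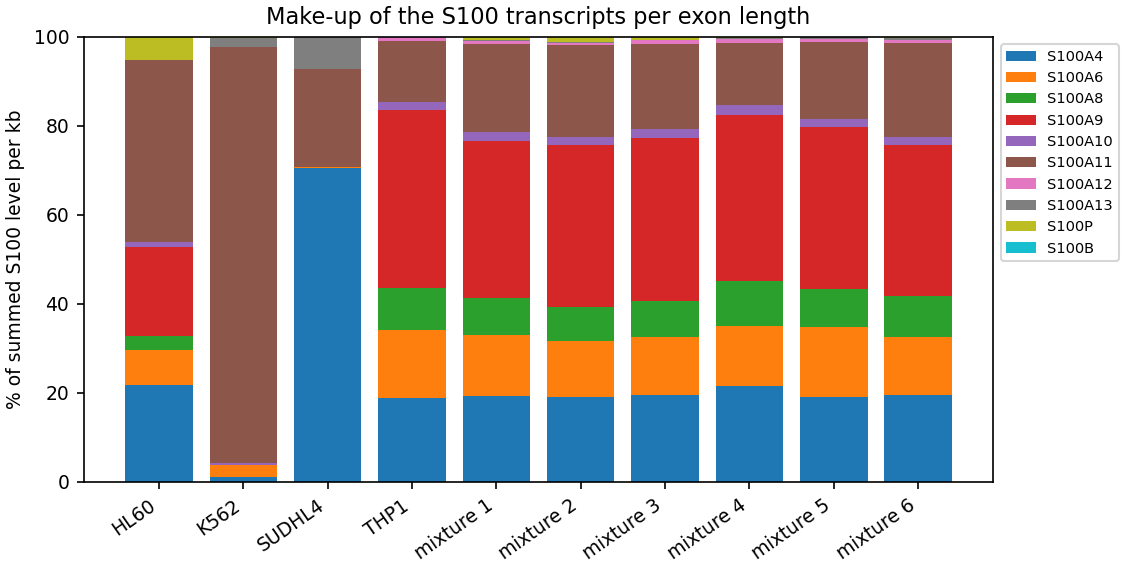
Share of each of the 10 S100 members in their summed level per kilobase of exon, in percent, for the 4 pure lines and the 6 mixtures. Each bar is 1 library, and other S100 genes are not in the sum. S100A11 fills 93.6% of the K562 bar and S100A4 70.5% of the SUDHL4 bar, whereas S100A9 is the largest part of THP1 (40.0%) and of every mixture.

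Of the members, 8 lie on the long arm of chromosome 1, and their positions were compared with the levels (GRCh38, GENCODE release 29). S100A10 (151982915 to 151994390) and S100A11 (152032506 to 152047907) have starts at −1363 and −1310 kb relative to that of S100A9 (153357854 to 153361027). The start of S100A12 (153373706 to 153375649) lies 17.8 kb and that of S100A8 (153390032 to 153391188) 33.3 kb beyond the start of S100A9, and these 3 neighbours were the ones with 0 reads in both K562 and SUDHL4 among the members on this chromosome. S100A6 (153534599 to 153536244) and S100A4 (153543613 to 153550136) follow at 178 and 192 kb. The levels did not follow position smoothly. S100A5 and S100A3, with starts at 184 and 192 kb, were at or below 0.382 normalised CPM in all 4 pure lines, although S100A3 lies within the annotated span of S100A4, which was at 554 in THP1. At 270 to 274 kb the order turned: S100A1, a regulator of calcium handling in muscle, was at 19.0 in SUDHL4, 5.15 in K562, 0.351 in THP1 and 0.151 in HL60, and S100A13 (153618787 to 153631360), which overlaps it, was also higher in K562 and SUDHL4. The nearest measured protein-coding gene beyond the cluster, CHTOP, which encodes a chromatin protein, was present in all 4 lines at 74.2 to 140.0 normalised CPM. S100B (46598962 to 46605208) is on chromosome 21 and S100P (6693069 to 6697170) on chromosome 4.

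**Figure D3:**
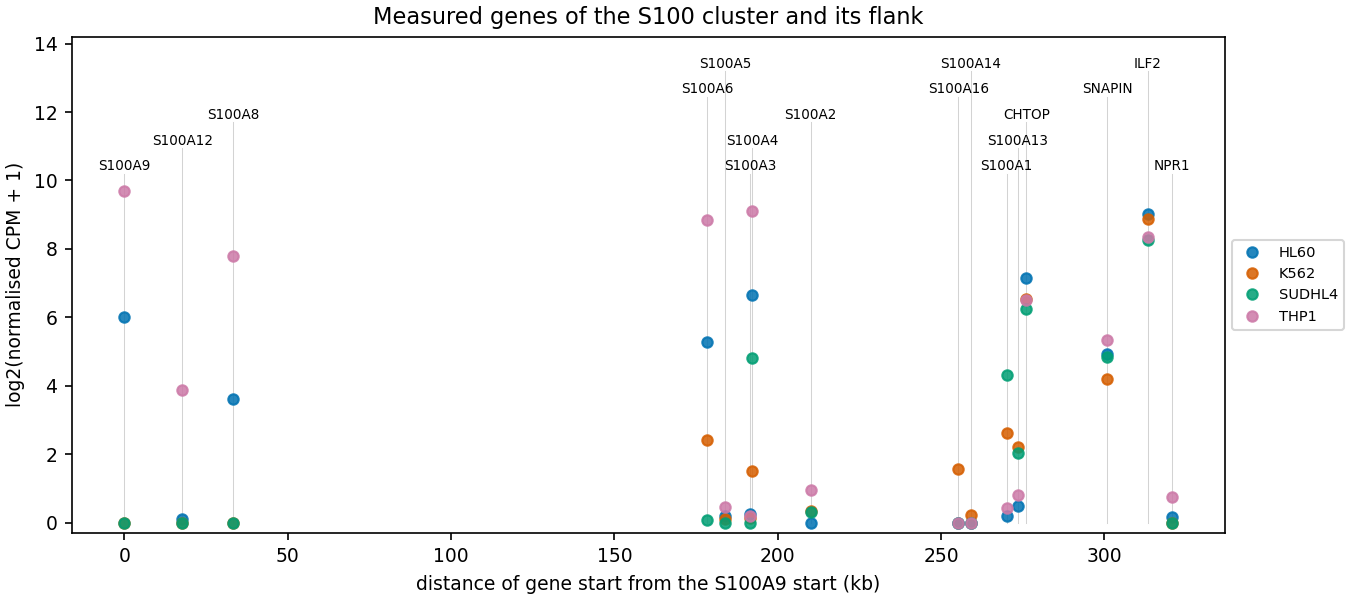
Log2(normalised CPM + 1) of the measured protein-coding genes from S100A9 to the flank of the cluster, against the distance of each gene start from that of S100A9 in kb; points are single pure libraries coloured by line, and grey lines lead to the gene names. THP1 and HL60 stand above K562 and SUDHL4 at S100A9 and S100A8, only THP1 is above the limit of 3 reads at S100A12, this order turns at S100A1 and S100A13, and CHTOP (74.2 to 140.0 normalised CPM) and ILF2 (304 to 515) beyond the cluster are present in all 4 lines.

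Among 7 other measured S100 genes, the highest levels were those of S100A1 and S100Z in SUDHL4, and 0 were enriched in THP1. The highest line was SUDHL4 for 2 of the 7, K562 for 2, THP1 for 2 and HL60 for 1. S100Z was enriched in SUDHL4 at 12.03 normalised CPM, against 0.151 in HL60, 0.0424 in K562 and 0 reads in THP1, and S100A1 met the rule for a gene shared by K562 and SUDHL4 (background 0.512% of genes). The other 5 (S100A2, S100A3, S100A5, S100A14 and S100A16) stayed below 5 normalised CPM in every pure line, with the highest value, 1.93, for S100A16 in K562.

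The binding partners of the S100 proteins did not follow the S100 genes line by line. Of 56 measured genes in lists of other S100 genes, annexins, binding partners, receptors, regulators, NADPH oxidase subunits and plasmin system genes, 6 were enriched in THP1, 3 in SUDHL4, 2 in K562 and 1 in HL60, against the same background shares as above. None of the 8 annexins was enriched in a line. ANXA2, with which S100A10 forms a membrane complex, was at 363 normalised CPM in K562 and 137 in THP1, but at 1.66 in HL60 and 0.275 in SUDHL4. Only THP1 therefore had both S100A10 and ANXA2 above 5 normalised CPM, since S100A10 was at 0.861 in K562 and ANXA2 was low in HL60. AHNAK, a large scaffold protein of that complex, was at 463 in THP1, 119 in K562 and 27.7 in HL60, with 0 reads in SUDHL4. ANXA2 and AHNAK met the rule for genes shared by K562 and THP1 (background 1.68%). ANXA1, the partner of S100A11, was at 464 in K562, 141 in THP1 and 82.2 in HL60, with 0 reads in SUDHL4.

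Partners of other members were mostly present in every line. MYH9, the non-muscle myosin heavy chain bound by S100A4, was at 1388 in THP1, 1121 in HL60, 777 in SUDHL4 and 198 in K562. EZR, which encodes the S100P partner ezrin, ranged from 197 in HL60 to 273 in SUDHL4. CACYBP, the S100A6 partner, ran from 224 in THP1 to 434 in K562. The membrane repair gene DYSF was enriched in K562 (7.16).

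The receptors divided between lines. AGER, the RAGE receptor gene, was low in all 4 lines, at most 1.40 normalised CPM in K562. TLR4 was at 33.6 in HL60, 18.4 in THP1 and 11.3 in SUDHL4, with 0 reads in K562. Its co-receptor gene LY96 was enriched in SUDHL4 at 18.3 against 0.993 in THP1 and 0.453 in HL60, whereas CD14, the lipopolysaccharide co-receptor, was enriched in THP1 at 19.1. No line had all of TLR4, LY96 and CD14 above 5. CD36, a scavenger receptor, was enriched in THP1 at 22.8, and MCAM was enriched in K562 at 47.5. CD33 and ALCAM met the rule for genes shared by HL60 and THP1, with CD33 at 89.7 and 70.2 and ALCAM at 107 and 124. BSG, the receptor EMMPRIN, was at 444 or more in all 4 lines.

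Among regulators of myeloid transcription, CEBPD and KLF4 were enriched in THP1, at 21.8 and 10.5 normalised CPM, and CEBPE in HL60, at 216 against 6.58 in THP1. SPI1, which encodes PU.1, was at 237 in HL60, 206 in THP1, 92.3 in SUDHL4 and 6.88 in K562. IRF8 was shared by SUDHL4 and THP1 (160 and 570, background 0.973%) and had 0 reads in HL60. SERPINB2, an inhibitor of plasminogen activators, was enriched in THP1 at 44.2. PLAU and PLAUR, the urokinase and its receptor, were shared by HL60 and THP1, with PLAUR at 51.2 and 35.4.

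The genes most like each member were found by scaling every gene to its highest of the 10 libraries and taking the largest gap in any library, in percentage points, over 11276 other named genes. The mixtures hold the same lines, so the 10 libraries are not independent, and the gap is a description. S100A8 was nearest to RNASE2, an eosinophil-type ribonuclease (4.804 points), SLPI (4.83) and S100A9 (4.95). S100A9 was nearest to S100A8 (4.95), PTGR1 (5.13) and S100A6 (5.67), and S100A6 in turn to S100A9 (5.67), FCGR1B (5.78) and RNASE6 (6.01). S100A4 was nearest to IGFBP7 (5.82), TNFAIP8L2 (8.17) and PPCS (8.19), and S100A10 to PPCS (6.38), RNASE3 (7.91) and S100A12 (8.63). S100A12 had C3orf14 (5.56), C1orf54 (6.23) and CD163L1 (6.37) as its nearest genes. S100A11 and S100P stood further from other genes: the 3 genes nearest to S100A11 included PLEKHO1 (9.98) and MOSPD3 (10.4), and S100P was nearest to OLIG2 (8.14), HPDL (9.84) and NUCB2 (10.2). Several of these names belong to families with close copies, such as FCGR1B, RNASE2 and RNASE3, whose reads may be split between copies.

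The mixtures read each member again in 6 further libraries. A non-negative least squares fit to 100 signature genes per line, none of them an S100 gene, gave a coefficient for each line. The level of each member was predicted as the sum over lines of coefficient times pure level. The coefficients of a mixture summed to between 0.904 (mixture 3) and 0.972 (mixture 5). For the shares below they were rescaled to 100%, so predictions made from the shares would be higher than those given. THP1 gave an estimated 28.97%, 24.1%, 35.3%, 31.4%, 34.6% and 27.9% of the RNA in mixtures 1 to 6, and HL60 26.0%, 48.9%, 25.3%, 10.4%, 0.325% and 7.67%. SUDHL4 gave 22.4%, 6.71%, 0%, 58.2%, 11.7% and 11.6%, and K562 22.6%, 20.3%, 39.4%, 0.0157%, 53.4% and 52.9%. These are shares of RNA, and in a mixture fewer cells of a line and less RNA per cell cannot be told apart. Because the levels in THP1 were so high, THP1 was predicted to supply most of the S100A9 transcripts in every mixture, from 86.4% in mixture 2 to 99.9% in mixture 5. For S100P the predicted source moved from HL60, with 91.8% in mixture 2, to THP1, with 82.0% in mixture 5. S100A11 in mixture 2 was predicted to come almost equally from THP1 (44.1%) and HL60 (41.7%), with 13.9% from K562.

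S100A9 was observed at 266, 354, 278, 297, 368 and 262 normalised CPM in mixtures 1 to 6, where 246, 219, 277, 255, 277 and 227 were predicted. It was thus highest in mixtures 2 and 5, and the excess in mixture 2, 1.62-fold, came in the mixture with the smallest estimated THP1 share. S100A8 was observed at 67.9, 84.4, 69.6, 89.6, 96.5 and 79.1, against 63.8, 55.3, 72.2, 67.1, 73.5 and 59.8 predicted. It lay above its prediction in 5 of 6 mixtures and below it in mixture 3. S100A12 was observed at 4.57, 4.77, 5.00, 6.67, 7.42 and 4.31, between 1.15 and 1.62 times its prediction. These values rested on 120 to 189 reads, and the 95% intervals of those reads included the predicted level in mixtures 3 and 6. In mixture 1 the interval began at 3.90, just above the predicted 3.82. The intervals leave out the counting error of the prediction, which rested mostly on the 445 reads of THP1.

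S100A4 was observed at 206, 265, 211, 245, 276 and 215 normalised CPM in mixtures 1 to 6, between 1.05 times (mixture 3) and 1.51 times (mixture 2) its prediction. S100A6 was observed at 153, 180, 146, 159, 231 and 149, with ratios from 0.933 in mixture 3 to 1.47 in mixture 5. S100A10 was observed at 34.8, 36.5, 31.6, 39.8, 38.8 and 33.2. Its ratios of 1.36, 1.58, 1.10, 1.52, 1.35 and 1.40 put it above its prediction in all 6 mixtures. S100A11 was observed at 152, 207, 150, 113, 180 and 168, with ratios from 0.926 in mixture 3 to 1.37 in mixture 2. Its lowest level fell in mixture 4, which was estimated to hold 0.0157% K562, 10.4% HL60 and 58.2% SUDHL4 RNA, SUDHL4 being the line with the lowest S100A11.

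S100P was observed at 12.9, 27.5, 12.1, 6.33, 3.42 and 6.36, highest in the mixture with the most HL60 RNA and lowest in the mixture with the least. Its ratios to the prediction lay between 1.16 (mixture 3) and 1.502 (mixture 2). S100A13 was observed at 2.50, 1.68, 1.15, 2.76, 4.13 and 3.70, with ratios from 0.704 to 1.65 and 34 to 120 reads. S100B had 1 to 10 reads per mixture, too few to compare with a prediction.

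**Figure D4:**
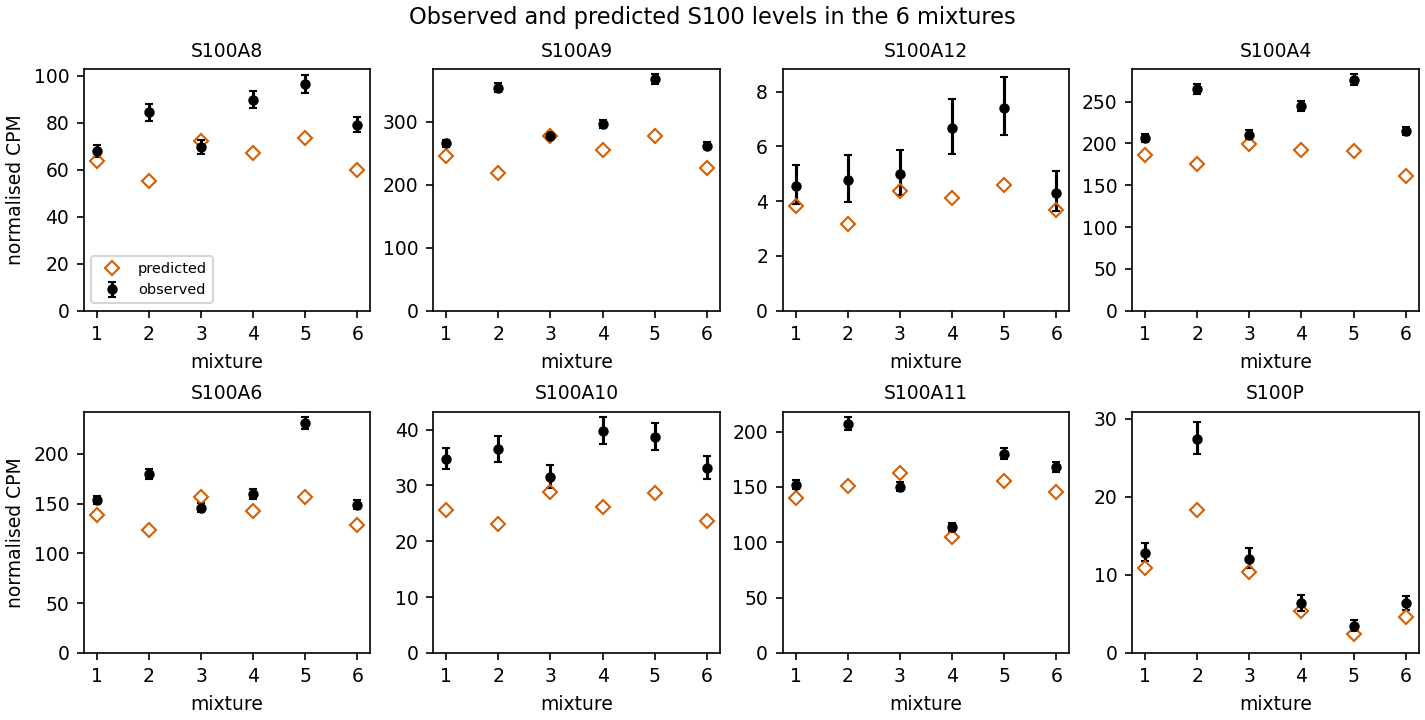
Observed (black circles, with 95% Poisson intervals of the reads) and predicted (open diamonds) level in normalised CPM of 8 S100 genes in mixtures 1 to 6; each panel has its own axis from 0. Observed levels lie above the predictions in mixture 2 for all 8 genes, and S100A4, S100A9, S100A10, S100A12 and S100P are above theirs in all 6 mixtures, S100A9 by a ratio of only 1.00 in mixture 3.

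No member was off its prediction by the rule of at least 1 log2 unit, or 2-fold, in any mixture, where 0.0486%, 0.401%, 0.119%, 0.17%, 0.476% and 0.134% of compared genes in mixtures 1 to 6 were at least that far above. At least that far below were 0.0583%, 0.812%, 0.0296%, 0.05%, 0.229% and 0.106%. Smaller differences mostly had 1 sign. Of the 10 members, 9, 10, 5, 9, 10 and 9 lay above it in mixtures 1 to 6, where the share of all compared genes above was 49.3%, 51.3%, 55%, 59.3%, 48.2% and 50.3%. That share covers genes with an observed or predicted level of 5 normalised CPM or more, whereas the count covers all 10 members, S100B with its few reads included. Of the members at that level, 7 of 7, 7 of 7, 5 of 8, 8 of 8, 7 of 7 and 7 of 7 lay above. The median of observed minus predicted log2(value + 1) over the 10 members was 0.15, 0.55, −0.02, 0.27, 0.41 and 0.30, against medians between −0.01 and 0.05 over all compared genes. In mixture 2, 5.22% of compared genes were at or above the members' median, and in mixture 3 62.4% were. THP1-enriched genes that took no part in the estimate had medians between 0.01 and 0.06 in the 6 mixtures. These mixtures share the 4 pure libraries in their predictions, so their values are not independent of each other.

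Across the mixtures, the difference between short and long other genes moved with this excess. The members have short transcripts, from 518 bases of annotated exon for S100A12 to 1448 for S100B. Among them, S100A10, with 1258 bases, had ratios to the prediction of 1.10 to 1.58. The shorter S100A11, with 594, had 0.926 to 1.37, and S100A12 had 1.15 to 1.62. Other genes with under 1 kb of exon had medians of 0.09, 0.41, −0.05, 0.21, 0.28 and 0.15 log2 units in mixtures 1 to 6, and genes with 4 kb or more had −0.07, −0.22, 0.07, −0.02, −0.18 and −0.09. Mixture 2 had the widest gap between short and long genes and the largest S100 excess, whereas mixture 3 had the opposite order of short and long genes and no S100 excess. When each member was centred on other genes of its length class, an alternative chosen after seeing the data, the medians over the 10 members were 0.06, 0.15, 0.02, 0.08, 0.19 and 0.15, lower than before in 5 mixtures and higher in mixture 3, with 8, 8, 5, 7, 8 and 9 of 10 above 0. The 8 to 14 THP1-enriched genes under 1 kb had medians of 0.08, 0.41, −0.22, 0.07, 0.31 and 0.25 in mixtures 1 to 6. The part of length in the result was not tested further.

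**Figure D5:**
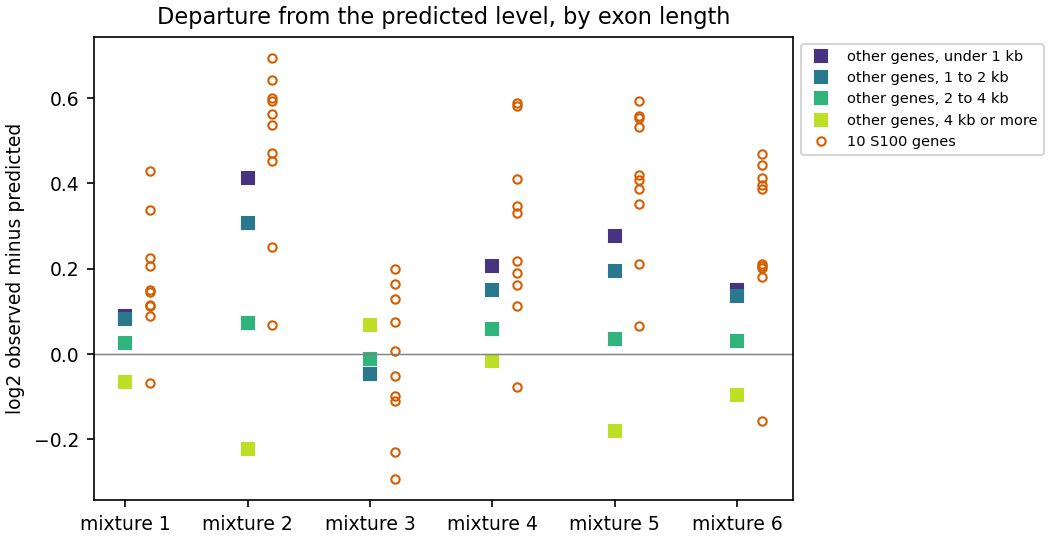
Observed minus predicted log2(normalised CPM + 1) in the 6 mixtures: open circles are the 10 S100 genes, and squares are medians of the other compared genes in 4 classes of annotated exon length. In mixture 2 the squares run from −0.22 for genes of 4 kb or more to 0.41 for genes under 1 kb and the S100 genes reach furthest above 0, whereas in mixture 3 the order of the squares is reversed and the S100 genes lie on both sides of 0.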

How the data were processed

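Bulk RNA sequencing of 10 libraries was analysed, 1 per group. Tools named without roles, per the submitters' processing notes, are featureCounts, HISAT2 and Cell Ranger ARC 2.0.0, with the build hg19; annotation, counting settings and the scaling between libraries were not stated in what was used here. Values are signal as the authors deposited them, close to counts per 1000000 but with rescaled library sizes (factors 0.903 to 1.10). Each value above 0 was a whole number of reads plus 0.5, times a step constant within its column (100% within 0.01), and reads were recovered from it. Poisson intervals were exact (SciPy 1.17.1, NumPy 2.4.6, pandas 2.3.3).

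Exon lengths and positions came by Ensembl ID from GENCODE release 29 on GRCh38, which is not the authors' build, and 96.8% of genes had a length. Signature genes were scaled to their maximum over the pure lines before fitting, and S100 and listed genes were left out. The calculations were tested on simulated data, drawn from a common profile with a set of genes raised in each line and Poisson error. That simulation had no effect of length and equally distinct lines, so it does not cover these features of the data. The smallest margin among the signature genes was 2.23 log2 units for HL60 and 4.42 to 4.80 for the other lines. Named genes are the 10 members, listed partner genes that were enriched, shared or a defining partner, the 3 nearest genes by pattern, and genes flanking the cluster. CACYBP, BSG, SPI1, S100A3, S100A5, S100A16 and the named cell markers were added after their values were seen. Some genes that this rule names are not reported here. Members and lists were chosen with earlier results of these data known. Alternatives varied the scaling, pseudocount, minimum level, margins and signature.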

Additional observations from a re-analysis of the deposited data

How the results depend on the processing

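No paired analysis was possible because each group holds 1 library, and for the same reason no library could be left out. The members' enrichment counts changed under 3 alternatives. With a margin of 3 log2 units, 0 members were enriched in HL60 instead of 1, and THP1 had 5 instead of 6, without S100A4. THP1 had 7 with a margin of 1, S100A11 included, and 5 with a minimum level of 20, without S100A12. Of the partner genes, a margin of 1 gave 5 in K562, 7 in SUDHL4 and 10 in THP1 (2, 3 and 6 as reported), a margin of 3 gave 1 in K562, and a minimum level of 20 gave 1 in K562 and 1 in SUDHL4. THP1 partner genes numbered 4 with that minimum, 5 with a margin of 3, 7 when scaled by total reads and 8 when scaled by housekeeping genes, which also gave 4 in SUDHL4. With a margin of 0.5 in place of 1 log2 unit, 6 members were off the prediction in mixture 2, 2 in mixture 4 and 3 in mixture 5. All of these lay above it, and 0 were off as reported. The lowest of them in mixtures 2, 4 and 5, S100A6, S100A12 and S100A4, lay above 94.4%, 99.0% and 95.6% of compared genes. The share of all genes beyond that margin was not counted. S100B, with 15 reads in each line, turned in direction: log2 THP1 minus HL60 was -0.04 as reported, 0.01073 when scaled by total reads and 0.06861 when scaled by housekeeping genes. The median of all genes on this scale was -0.13 as reported and moved by 0.13 and 0.25 under these scalings. The members' median in mixture 3 was -0.02 as reported, 0.04061 over members at 5 normalised CPM or more, 0.1238 with undivided signature values and 0.02457 when centred on length; the first and last of these were added after seeing the data. With undivided signature values the members' median also went from 0.55 to 0.38 in mixture 2, 0.41 to 0.31 in mixture 5 and 0.30 to 0.19 in mixture 6. The causes were not tested.

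Shares of RNA moved as follows, in mixtures 1 to 6. With total-read scaling, HL60 was at 28.34%, 51.84%, 27.92%, 11.58%, 0.3826% and 8.63%, and THP1 at 28%, 22.68%, 34.24%, 30.66%, 34.71% and 27.61%. With housekeeping scaling, HL60 was at 29.28%, 52.9%, 28.5%, 12.47%, 0.2449% and 8.598%, and THP1 at 26.09%, 20.85%, 31.34%, 29.78%, 31.95% and 25.29%. With 50 signature genes per line, HL60 was at 25.66%, 47.51%, 25.63%, 10.64%, 0% and 7.306%, and THP1 at 28.88%, 23.82%, 35.49%, 31.44%, 33.69% and 27.35%. With undivided signature values, HL60 was at 27%, 53.87%, 27.7%, 11.21%, 1.829% and 10.13%, and THP1 at 28.94%, 23.05%, 32.41%, 32.73%, 36.35% and 27.92%. Depth limits S100B, S100A12 and S100A13 in HL60 and S100A6 in SUDHL4, which rest on 15 reads or fewer.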
